A study of Homo sapiens with 18 samples.

Results

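The tripartite motif (TRIM) family of Raji cells was followed over 48 h. Members were taken by symbol, as every gene whose name in the platform's gene table is TRIM followed by a number, and each was represented by its probe set with the highest mean over the 18 arrays. The rule found 54 TRIM genes among 18417 genes measured. The gene table held 64 such symbols, and the other 10, TRIM6 and TRIM34 among them, had only probe sets naming several genes and were given no value. Raji cells are an established B-cell line. They were derived from a human Burkitt lymphoma and carry Epstein-Barr virus. Per the labels, every group received 3 mM sodium n-butyrate, an inhibitor of histone deacetylases, 0.05 µM phorbol ester, an activator of protein kinase C, and 19 µM maslinic acid, a plant triterpene. The groups differ only in harvest time (0, 4, 8, 12, 24 or 48 h), with 3 arrays each that the labels call biological replicates. The labels give the 0 h arrays the same 3 compounds, and arrays of untreated cells or of single compounds were not analysed here, so effects of the compounds and of time in culture cannot be told apart. The labels do not say whether replicates came from separate cultures, so the p-values measure the spread between these arrays.

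TRIM proteins are named for a RING domain, 1 or more B-box zinc fingers and a coiled coil, and most act as ubiquitin E3 ligases through the RING. The domain at the C-terminal end sets the class and the target. Many members with a PRY-SPRY domain take part in antiviral defence, and several of their genes are known to be induced by interferon. Members with a plant homeodomain and bromodomain (TRIM24, TRIM28, TRIM33, TRIM66) act on chromatin, those with a COS box bind microtubules, and those with NHL repeats include regulators of RNA and of protein turnover.

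Promoters are shown first because several members rose in the same interval as known interferon target genes. Of the 54 genes, 42 had a promoter of 300 bases in the RefSeq table of GRCh38.p14, from 250 bases before to 50 after the gene's start. TRIM22, TRIM4, TRIM8, TRIM11, TRIM24, TRIM27, TRIM28, TRIM29, TRIM35, TRIM45, TRIM55 and TRIM60 had none in that table. The motif searched was GAAA, any 2 bases and GAAA again, the core of the interferon-stimulated response element, on both strands, with overlapping matches merged. It was found in 8 of the 42 members (19%), against 996 of 27305 promoters in the table (3.65%). A match is a match of letters only. TRIM5, TRIM21 and TRIM44 passed the F test over all times and single comparisons, TRIM14 only the F test and TRIM69 only a single comparison. For TRIM26 no test passed. The 6 windows below hold the matches of these genes. Each is written 5′ to 3′ on the strand that reads GAAA, with the match in capitals.
TRIM5: ctcagggcagGAAAGTGAAAgataaactat
TRIM14: gctcccaaggGAAACCGAAAcctcggccgt
TRIM21: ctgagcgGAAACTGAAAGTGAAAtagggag
TRIM44: tcctgacgggGAAAGGGAAAgtggaaccgg
TRIM69: ttgcttaagaGAAAGAGAAAccctcattag
TRIM26: gggcagcGAAATGGAAACTGAAAtcaggcg

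The TRIM5 window lies at chr11:5685082-5685111 (plus strand), with the match from base -27 to -18 of a gene on the minus strand. The TRIM14 window is at chr9:98119229-98119258 (plus strand), from -26 to -17. The TRIM21 window is at chr11:4393663-4393692 (minus strand), and its 2 overlapping matches run from base 18 to 33 after the start, inside the transcribed part. TRIM44 matched from -35 to -26 (window chr11:35662730-35662759, plus strand) and TRIM69 from -62 to -53 (window chr15:44736456-44736485, minus strand). TRIM26 held 2 overlapping matches from -194 to -179, farther from the start (window chr6:30213578-30213607, plus strand). TRIM2 and TRIM16 also matched, and neither passed a test at any time. The promoters of TRIM25, TRIM38, TRIM9, TRIM56 and TRIM32, which rose at some time, and of TRIM59, which fell, hold no match in these 300 bases. TRIM32 did not pass the F test, and its only call was lost under 11 of 15 alternative analyses. The 150 bases before the start are printed for TRIM25, TRIM38 and TRIM9 and, for comparison, for TRIM5, each on the strand of its gene, with the match of TRIM5 in capitals. They lie at chr11:5685075-5685224 (minus strand) for TRIM5, chr17:56914050-56914199 (minus strand) for TRIM25, chr6:25962652-25962801 (plus strand) for TRIM38 and chr14:51095106-51095255 (minus strand) for TRIM9.
TRIM5: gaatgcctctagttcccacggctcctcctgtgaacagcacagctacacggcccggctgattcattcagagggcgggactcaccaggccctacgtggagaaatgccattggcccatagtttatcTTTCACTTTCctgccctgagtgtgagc
TRIM25: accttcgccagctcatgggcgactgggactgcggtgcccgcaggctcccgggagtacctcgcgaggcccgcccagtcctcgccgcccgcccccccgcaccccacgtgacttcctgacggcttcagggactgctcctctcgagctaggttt
TRIM38: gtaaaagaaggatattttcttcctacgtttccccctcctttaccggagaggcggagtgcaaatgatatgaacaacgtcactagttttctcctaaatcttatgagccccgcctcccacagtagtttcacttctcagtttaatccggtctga
TRIM9: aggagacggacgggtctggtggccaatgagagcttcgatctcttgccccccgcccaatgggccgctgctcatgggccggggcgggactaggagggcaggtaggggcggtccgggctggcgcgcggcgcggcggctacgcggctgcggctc

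Values are log2 intensities as deposited, differences are on the same log2 scale, and a change was called where limma's adjusted p was under 0.05. The medians of the 18 arrays lay between 4.03 and 4.25 and their lower quartiles between 2.89 and 3.24, and replicate 2 of 8 h had the narrowest interquartile range (2.37, against 2.74 to 3.16 on the others). The mean of 5 measured B cell markers was between 6.33 and 7.96 on every array, that of 6 T cell markers between 3.59 and 4.24 and that of 5 monocyte markers between 3.09 and 3.63. Single genes overlapped, with a mean over the 18 arrays of 5.43 for the lowest B cell marker and 5.82 for the highest T cell marker, CD7. The means of 7 epithelial, fibroblast and erythroid markers ran from 2.67 to 5.27. At 8 h 1 of the 5 B cell markers was lower, PAX5 (difference -1.26, adjusted p = 0.0181), and at 12 h 3 were, with PAX5 at -1.34 and MS4A1 at -1.26. At 24 h 0 were lower and at 48 h 1 was, CD79A (difference -1.77, adjusted p = 0.0115). Over all genes 3.18%, 4.14%, 5.74% and 8.11% were lower at 8 h, 12 h, 24 h and 48 h. CD3D, a T cell receptor subunit, was the 1 of 6 T cell markers that rose, by 1.57 at 24 h, where 6.74% of all genes rose. The F test passed for 0 monocyte markers, beside 16.4% of all genes. The part of these markers in the TRIM results was not tested. In such RNA from whole cultures, fewer cells of a type and less RNA per cell cannot be told apart.

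Across the time course TRIM5, TRIM22, TRIM21, TRIM25, TRIM38, TRIM9, TRIM44, TRIM56, TRIM59 and TRIM14 differed from 0 h in the F test. These 10 of 54 members are 18.5%, a share near the 16.4% of all genes that passed. At 24 h 9 members rose (16.7%) and 0 fell, where 6.74% of all genes rose and 5.74% fell (12.5% in all). At 48 h 9 rose and 1 fell, against 6.92% and 8.11% of all genes (15% in all). With each array centred on its median, which lowers all 48 h differences by 0.115, the counts were 8 higher and 1 lower at 24 h and 7 and 2 at 48 h. The shares of all genes with this centring are not given here. Of the 10 genes of the F test, 6 changed at least 2-fold in the mean at some time. The median difference over the 54 members was 0.15 at 24 h and 0.25 at 48 h, beside -0.01 and 0.05 over all genes. The arrays of a later time did not overlap with those of 0 h for 9, 7, 17, 13 and 20 members in the order of the harvest times from 4 h to 48 h. Over all genes this held for 18.4%, 19.2%, 27.9%, 27.4% and 28.4%.

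**Figure D1:**
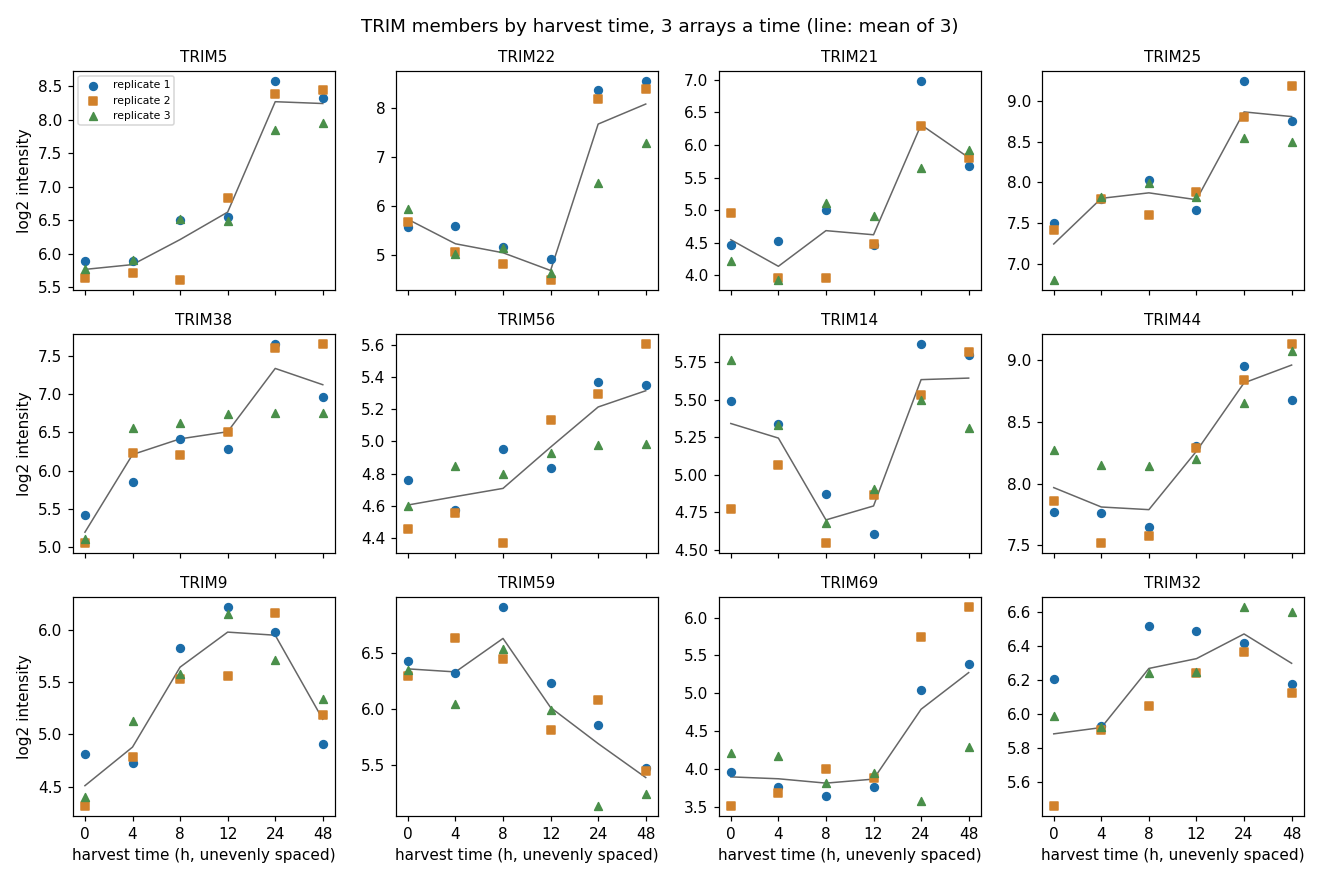
Log2 intensity (vertical axis) of 12 TRIM genes at the 6 harvest times in h (horizontal axis, unevenly spaced), with 1 marker per array, shaped by replicate, and a line through the means of 3. TRIM5, TRIM22, TRIM21 and TRIM25 step up between 12 h and 24 h, TRIM38 and TRIM9 are already higher at 8 h, and TRIM59 falls to 5.39 at 48 h.

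TRIM5, a cytoplasmic factor that binds the capsids of incoming retroviruses, gave the strongest test in the family. Its 3 arrays read 5.89, 5.64 and 5.77 at 0 h, 5.90, 5.71 and 5.91 at 4 h, and 6.50, 5.61 and 6.52 at 8 h. They read 6.54, 6.84 and 6.48 at 12 h, 8.58, 8.39 and 7.84 at 24 h, and 8.33, 8.45 and 7.95 at 48 h. Every array of 24 h and 48 h lay above every earlier array. The rise from 0 h was 2.50 at 24 h (SE 0.23, adjusted p = 1.7e-06), a 5.67-fold difference, and 2.48 at 48 h (adjusted p = 7.5e-07). Between 12 h and 24 h the gene rose by 1.65 (SE 0.23, adjusted p = 0.000806). At 12 h it was already higher than at 0 h by 0.86 (SE 0.23, adjusted p = 0.0273). That early call was lost without replicate 2 or 3 of 0 h (adjusted p = 0.102 and 0.0705) and without any single array of 12 h (adjusted p from 0.0514 to 0.12).

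TRIM22, an interferon-induced nuclear and cytoplasmic antiviral factor, lies on chromosome 11. With RefSeq protein-coding genes ordered by start coordinate, TRIM34 comes just before it and TRIM6 just after TRIM5. Overlapping genes can stand apart in such an order, so it does not show how close TRIM5 and TRIM22 lie. TRIM22 read 5.57, 5.67 and 5.95 at 0 h, 5.59, 5.07 and 5.02 at 4 h, and 5.17, 4.81 and 5.15 at 8 h. The arrays of 12 h were at 4.92, 4.49 and 4.64, all below those of 0 h, with a difference of -1.04 that did not pass (SE 0.38, adjusted p = 0.114). The arrays of 24 h were at 8.36, 8.19 and 6.47 and those of 48 h at 8.56, 8.40 and 7.29, above all earlier arrays. From 12 h to 24 h TRIM22 rose by 2.99 (SE 0.38, adjusted p = 0.000447), or 7.94-fold, the largest step of any member in that interval. Against 0 h the rise was 1.94 at 24 h (adjusted p = 0.00217) and 2.35 at 48 h (adjusted p = 0.000308). Replicate 3 was the lowest array at both late times, and without it the 24 h difference from 0 h was 2.55.

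TRIM21, a cytosolic antibody receptor that sends antibody-coated particles to the proteasome, was at 4.47, 4.95 and 4.21 at 0 h and at 4.53, 3.95 and 3.93 at 4 h. It was at 5.0, 3.95 and 5.11 at 8 h and at 4.47, 4.48 and 4.91 at 12 h. At 24 h the arrays read 6.99, 6.30 and 5.65, and at 48 h 5.68, 5.81 and 5.93. All 6 late arrays were above the 12 earlier ones. The gene rose by 1.77 at 24 h (SE 0.32, adjusted p = 0.00103) and by 1.26 at 48 h (adjusted p = 0.0105) against 0 h, and by 1.69 from 12 h to 24 h (adjusted p = 0.00982). Without replicate 3 of 0 h the 48 h call was lost (adjusted p = 0.0526). The 12 h to 24 h call was lost without replicate 1 of 12 h or of 24 h (adjusted p = 0.0601 and 0.0719).

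TRIM25, an E3 ligase that acts on the RNA sensor RIG-I and on the antiviral protein ZAP, read 7.51, 7.42 and 6.81 at 0 h and 7.80, 7.80 and 7.82 at 4 h. It read 8.03, 7.60 and 7.99 at 8 h, and 7.66, 7.88 and 7.82 at 12 h. At 24 h its arrays were at 9.24, 8.81 and 8.54 and at 48 h at 8.75, 9.18 and 8.49. The 4 h, 8 h and 12 h arrays all lay above those of 0 h, with differences of 0.56, 0.63 and 0.54 that did not pass (adjusted p = 0.256, 0.103 and 0.15). TRIM25 rose by 1.62 at 24 h (SE 0.22, adjusted p = 6.4e-05) and by 1.56 at 48 h (adjusted p = 6e-05). The step from 12 h to 24 h was 1.07 (SE 0.22, adjusted p = 0.0145), a call lost without replicate 1 or 3 of 12 h or replicate 1 of 24 h (adjusted p = 0.0853, 0.0571 and 0.116).

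TRIM5, TRIM22, TRIM21 and TRIM25 were the 4 members called between 12 h and 24 h (7.41%), where 0.814% of all genes rose and 0.554% fell (1.37% in all). The count was 2 without replicate 1 of 12 h or of 24 h, and 6 without replicate 3 of 24 h. TRIM14, an adaptor of the mitochondrial antiviral protein MAVS, passed the F test (adjusted p = 0.01) without a single comparison that passed. Its mean was 5.34 ± 0.51 at 0 h, 4.70 ± 0.16 at 8 h and 4.79 ± 0.17 at 12 h, then 5.63 ± 0.21 at 24 h and 5.64 ± 0.29 at 48 h (SD, n = 3 each). Its difference from 12 h to 24 h was 0.84 (SE 0.22, adjusted p = 0.0674), with no overlap between the arrays.

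**Figure D2:**
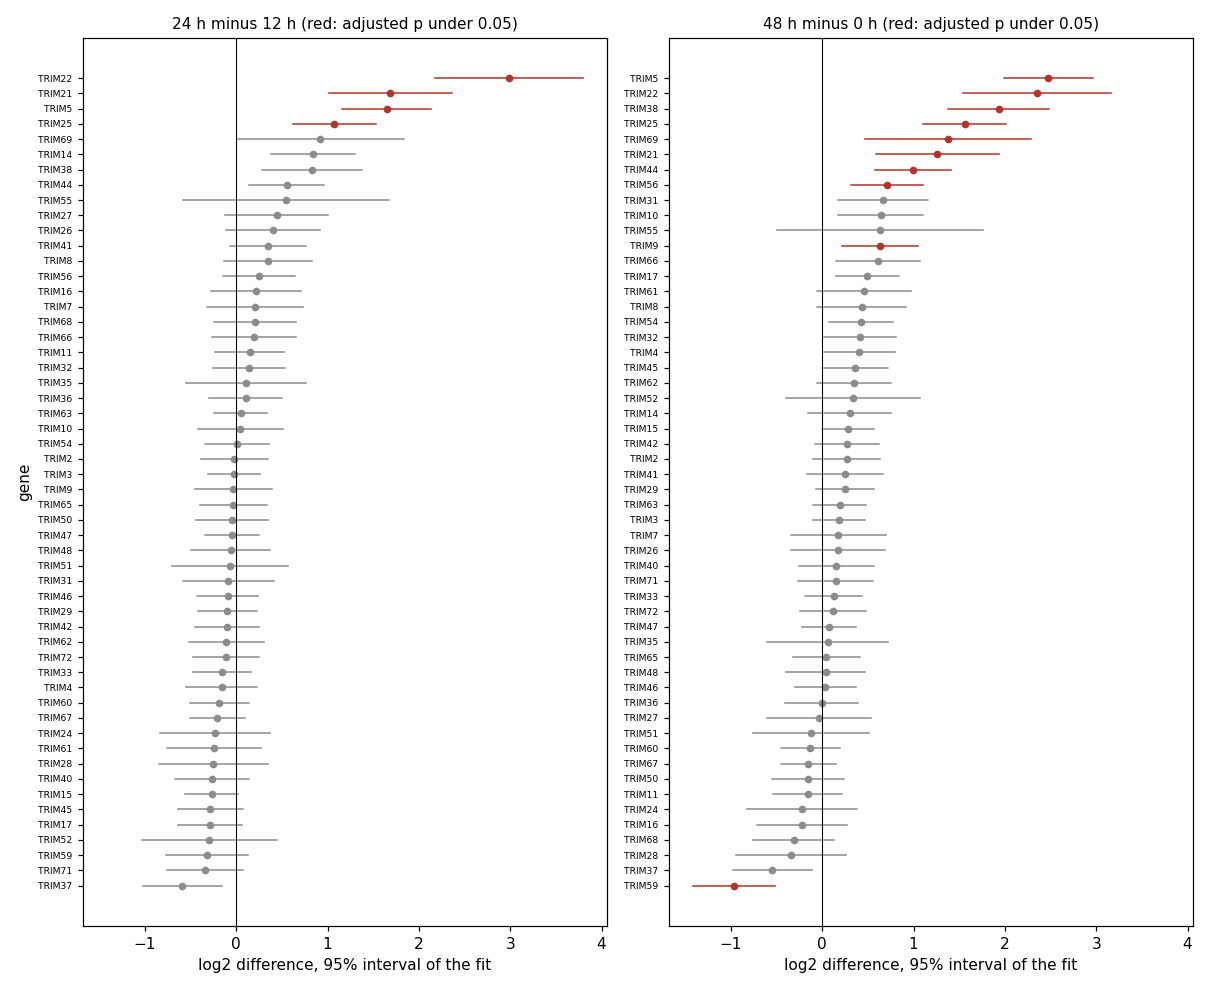
Log2 difference of each of the 54 TRIM genes with its 95% interval from the fit (horizontal axis), from 12 h to 24 h on the left and from 0 h to 48 h on the right, with genes in order of their difference on the vertical axis and called genes in red. TRIM22, TRIM21, TRIM5 and TRIM25 are the 4 called on the left, and TRIM59 is the 1 called below 0 on the right.

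TRIM38, which restrains signalling from Toll-like receptors and the tumour necrosis factor receptor, was called from 8 h on. Its arrays were at 5.42, 5.05 and 5.11 at 0 h, 5.85, 6.23 and 6.56 at 4 h, and 6.41, 6.21 and 6.63 at 8 h. At 12 h they were at 6.28, 6.51 and 6.74, then 7.66, 7.61 and 6.75 at 24 h, and 6.96, 7.66 and 6.75 at 48 h. None of the 15 later arrays overlapped with those of 0 h. The difference at 4 h was 1.02 (SE 0.26), with an adjusted p of 0.0572, the smallest of any member at that time, and it passed with quantile normalization (adjusted p = 0.0257). The rise was 1.22 at 8 h (adjusted p = 0.00747), 1.31 at 12 h (adjusted p = 0.00358), 2.14 at 24 h (adjusted p = 2.6e-05) and 1.93 at 48 h (adjusted p = 4.7e-05). From 12 h to 24 h it differed by 0.83 (SE 0.26, adjusted p = 0.159).

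TRIM9, a COS box ligase known for its work in neurons, was highest in the mean at 12 h and 24 h. It read 4.81, 4.31 and 4.40 at 0 h, 4.73, 4.78 and 5.13 at 4 h, and 5.82, 5.53 and 5.58 at 8 h. It read 6.22, 5.56 and 6.15 at 12 h, 5.97, 6.15 and 5.71 at 24 h, and 4.91, 5.18 and 5.34 at 48 h. All arrays of 8 h, 12 h and 24 h were above all of 0 h, 4 h and 48 h. Against 0 h the gene rose by 1.13 at 8 h (SE 0.20, adjusted p = 0.00181), 1.47 at 12 h (adjusted p = 0.000128) and 1.44 at 24 h (adjusted p = 8.8e-05). At 48 h the difference from 0 h was 0.63 (adjusted p = 0.0379), a call lost under 10 of 15 alternatives. From 24 h to 48 h it differed by -0.80 (SE 0.20, adjusted p = 0.103), which did not pass. TRIM9 and TRIM38 were the 2 members called at 8 h (3.7%), where 3.5% of all genes rose and 3.18% fell (6.68% in all). With TRIM5 they were the 3 called at 12 h (5.56%), where 3.91% of all genes rose and 4.14% fell (8.05% in all).

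TRIM44, which lacks a RING and can oppose ubiquitination, rose by 0.85 at 24 h (SE 0.20, adjusted p = 0.00702) and by 0.99 at 48 h (adjusted p = 0.00169), from 7.97 ± 0.27 to 8.82 ± 0.15 and 8.96 ± 0.25 (SD, n = 3 each). TRIM56, a ligase that acts in antiviral signalling through STING, rose from 4.61 ± 0.15 to 5.21 ± 0.21 and 5.32 ± 0.31, by 0.61 at 24 h (adjusted p = 0.0385) and 0.71 at 48 h (adjusted p = 0.0133). Its 24 h call was lost without replicate 2 or 3 of 0 h, without replicate 1 or 2 of 24 h and with quantile normalization, where its adjusted p was 0.145, 0.0862, 0.151, 0.123 and 0.0561. The 48 h call was lost without replicate 2 of 0 h or of 48 h (adjusted p = 0.0623 and 0.0778).

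TRIM59, a membrane-bound member, was the 1 gene of the family that fell. The 0 h, 4 h and 8 h means were 6.36 ± 0.06, 6.33 ± 0.29 and 6.63 ± 0.25, and those of 12 h, 24 h and 48 h were 6.01 ± 0.21, 5.69 ± 0.49 and 5.39 ± 0.13 (SD, n = 3 each). All arrays of 48 h lay below all of 0 h, and the fall was 0.97 (log2 difference of -0.97, SE 0.21, adjusted p = 0.00407). At 24 h the difference was -0.66 (adjusted p = 0.0506), and it was -0.39 without replicate 3 of 24 h.

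TRIM69 and TRIM32 passed in 1 comparison each but not in the F test, and they are named because of these values. TRIM69, a PRY-SPRY member with antiviral activity, was at 3.96, 3.51 and 4.22 at 0 h, 3.76, 3.68 and 4.17 at 4 h, 3.64, 3.99 and 3.81 at 8 h, and 3.76, 3.88 and 3.95 at 12 h. At 24 h it read 5.04, 5.74 and 3.58 and at 48 h 5.39, 6.14 and 4.29. Replicates 1 and 2 stood above replicate 3 at both times, and replicate 3 of 24 h lay within the earlier arrays. The 48 h difference was 1.38 (SE 0.43, adjusted p = 0.0383), lost under 6 of 15 alternatives (adjusted p up to 0.197). TRIM32, an NHL-repeat ligase, differed by 0.59 at 24 h (SE 0.19, adjusted p = 0.0477). That call was lost under 11 of 15 alternatives, and the difference was 0.38 without replicate 2 of 0 h.

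Replicate 3 was the lowest of its 3 arrays for 8 of the 9 members called at 24 h, all but TRIM32, and for 6 of the 9 called higher at 48 h, all but TRIM21, TRIM44 and TRIM9. Over all 54 members it was the lowest for 28 at 24 h and for 22 at 48 h. The mean of 18 interferon response genes was also lowest on replicate 3 at both times. It read 7.51, 7.32 and 5.75 on replicates 1 to 3 of 24 h and 7.73, 7.96 and 6.81 at 48 h. It was between 3.53 and 3.93 on every array from 0 h to 12 h. TRIM38 and TRIM9 were called at 8 h and 12 h, and TRIM5 at 12 h, within that range of the interferon mean. Whether interferon had a part in these early calls was not tested, and a list mean can hide shifts of single genes. The part of replicate 3 in these results was not tested. With replicate 2 of 8 h and replicate 3 of 24 h and of 48 h left out together, 5 members were called at 8 h and 6 at 12 h. These 3 arrays were chosen after seeing the data. The shares of all genes with them left out are not given here, so these counts are no result about the members.

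**Figure D3:**
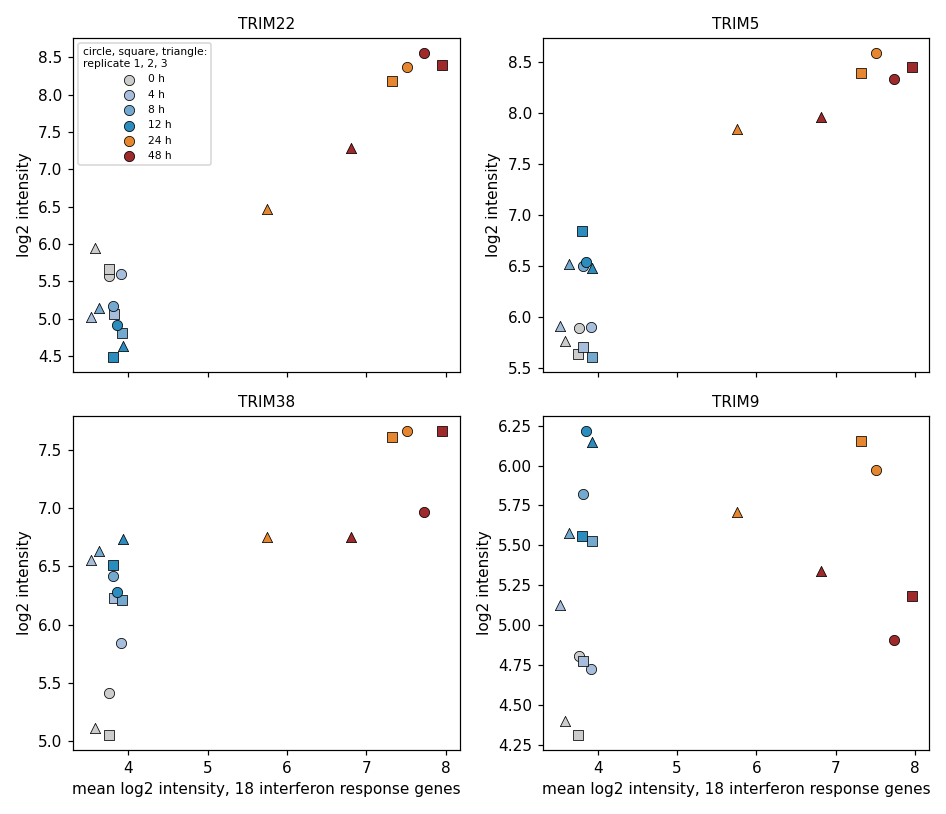
Log2 intensity (vertical axis) of TRIM22, TRIM5, TRIM38 and TRIM9 on each of the 18 arrays against the mean log2 intensity of 18 interferon response genes on that array (horizontal axis), coloured by harvest time and shaped by replicate. The interferon mean stays between 3.53 and 3.93 up to 12 h. On those arrays TRIM22 ranges from 4.49 to 5.95, TRIM5 from 5.61 to 6.84, TRIM38 from 5.05 to 6.74 and TRIM9 from 4.31 to 6.22. TRIM22, TRIM5 and TRIM38 have their highest values on arrays where that mean is high, and TRIM9 has its highest at 12 h.

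By class, the PRY-SPRY domain was held by 27 of the 54 members, and 6 of these passed the F test (TRIM5, TRIM14, TRIM21, TRIM22, TRIM25 and TRIM38), beside 10 of the 54 members and 16.4% of all genes. In this class 5 rose at 24 h and 6 at 48 h, and 0 fell, where 6.74% and 6.92% of all genes rose, with a median difference of 0.26 at 24 h and 0.18 at 48 h. TRIM9 was the 1 of 8 COS box members past the F test. Of the 4 chromatin regulators with a plant homeodomain and bromodomain 0 passed the F test or any comparison with 0 h. TRIM28, the co-repressor of KRAB zinc finger proteins, was at 5.90 ± 0.52 at 0 h and 5.56 ± 0.27 at 48 h (SD, n = 3 each), a difference of -0.34 (95% interval -0.94 to 0.26). TRIM24 differed by -0.22 at 48 h (interval -0.82 to 0.38), TRIM33 by 0.13 (-0.19 to 0.44) and TRIM66 by 0.61 (0.15 to 1.08, adjusted p = 0.0714). The intervals of TRIM28 and TRIM66 reach changes of about 2-fold.

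**Figure D4:**
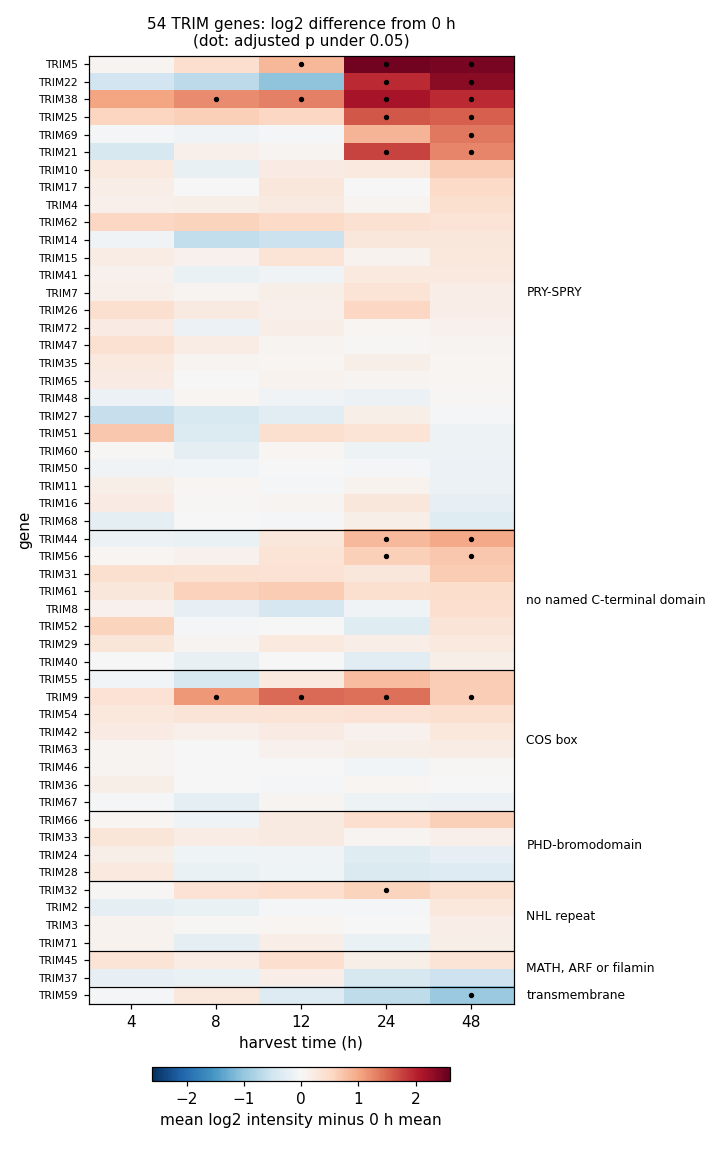
Mean log2 difference from 0 h (colour, red higher and blue lower) of the 54 TRIM genes (rows, grouped by class of C-terminal domain and ordered by the 48 h difference) at 4, 8, 12, 24 and 48 h (columns), with a dot where the adjusted p was under 0.05. The 24 h and 48 h columns hold 9 and 10 dots, of which 5 and 6 are in the PRY-SPRY class, 0 lie in the 4 h column, and TRIM59 has the 1 blue cell with a dot.

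For 44 members the F test did not pass. Their 6 group means spanned 0.15 to 1.46 from lowest to highest, with a median span of 0.43, and TRIM69 was the widest. Limma called 0 members at 4 h, with 6 at an unadjusted p under 0.05, where 1.16% of all genes rose and 0.586% fell (1.75% in all). It also called 0 members from 4 h to 8 h, from 8 h to 12 h and from 24 h to 48 h, with 4, 4 and 6 at an unadjusted p under 0.05, and 0.223%, 0% and 0.402% of all genes were called in these intervals. TRIM48 was below the lower quartile of its array on all 18 arrays and TRIM36 on 17, and these 2 are named because of their low values.

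Genes that work with TRIM proteins were counted from lists. In the list of the RNA and DNA sensing pathway, where TRIM25 and TRIM14 act, 5 of 18 rose at 24 h and 5 at 48 h, and 0 fell at either time. Over all genes 6.74% and 6.92% rose at these times. At 8 h 1 of the 18 rose and 1 fell, where 3.5% of all genes rose and 3.18% fell. RIGI, the sensor of short viral RNA, rose by 5.18 at 24 h (SE 0.52, adjusted p = 3.8e-06), ISG15, a ubiquitin-like modifier, by 2.94 at 48 h, and the sensor IFIH1 by 2.18 at 48 h. IFNB1, which encodes interferon beta, rose by 1.5 at 24 h (SE 0.37, adjusted p = 0.0111), from 2.52 ± 0.10 to 4.01 ± 1.04 (SD, n = 3 each), and its 0 h mean lay under the lowest of the arrays' lower quartiles (2.89). Of 18 interferon response genes, 14 rose at 24 h and 17 at 48 h, against 0 at 4 h, 8 h and 12 h. Over all genes 6.74% and 6.92% rose at 24 h and 48 h. At 4 h, 8 h and 12 h that share was 1.16%, 3.5% and 3.91%. IFI44L, IFIT1, IFI44 and RSAD2 rose by 7.62, 6.89, 6.63 and 5.75 at 48 h. Their 0 h means of 2.79, 3.24, 2.63 and 3.02 lay below or within the range of the arrays' lower quartiles (2.89 to 3.24), so the sizes of these differences are uncertain. The median difference of the 18 at 24 h was 3.25, beside 0.26 for the sensing list and -0.01 for all genes.

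Among 7 measured E2 enzymes, which hand ubiquitin or ISG15 to RING ligases, UBE2L6, the E2 for ISG15, was the 1 that rose, by 1.42 at 24 h (SE 0.25, adjusted p = 0.000861). Over all genes 6.74% rose at 24 h. UBE2D4 passed the F test and differed by -0.51 at 8 h (adjusted p = 0.0675). Of 16 partners of TRIM28 in silencing, 3 fell and 1 rose at 8 h, 5 fell at 12 h, 4 at 24 h and 5 at 48 h, and 0 rose at these 3 later times. The shares of all genes that fell were 3.18%, 4.14%, 5.74% and 8.11%, and 3.5% rose at 8 h. The list's median difference was -0.07, -0.04, -0.08 and -0.44 in the same order. The heterochromatin protein gene CBX5 fell by 1.48 at 48 h (SE 0.23, adjusted p = 0.000178), the SETDB1 partner ATF7IP by 1.17 at 12 h (adjusted p = 0.00242) and the remodeller CHD3 by 0.92 at 24 h (adjusted p = 0.00424). DNMT3B also passed the F test, and its largest difference went the other way, 0.84 at 8 h (adjusted p = 0.0828). Of 8 TRIM-family genes with other names, TRIML2 was the 1 past the F test and rose by 1.10 at 48 h (SE 0.23, adjusted p = 0.00246). Over all genes 16.4% passed that test. PML, a TRIM protein that builds nuclear bodies and is known as an interferon target, differed by 0.55 at 24 h (SE 0.24, adjusted p = 0.18).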

How the data were processed

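Total RNA of 18 samples of Raji cells was turned into biotin-labelled cDNA by the array maker's method, per the labels' protocols, and the deposited values are log2 intensities, 1 per probe set. Base 2 was inferred, since the values' range fits it. Which software, background correction and normalization the authors applied is not given in the sources used here. No further normalization was applied. Of 33297 probe sets, 19460 named 1 gene, 1754 several and 12083 none here, and 19429 of the first matched the reference table by gene ID.

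A model of harvest time was fitted to all genes and 18 arrays with limma 3.58.1 (R 4.3.3, empirical Bayes, 12 residual and 5.58 prior degrees of freedom), with Benjamini-Hochberg adjustment over 18417 genes. On simulated data for 24 h against 0 h over 18417 genes, 74% of 100 genes changed by 1 on the log2 scale were recovered and 97% of 100 changed by 2, with 12 false calls. The simulated noise was independent between genes and arrays, and fewer genes changed than the 2298 called at 24 h here. Recovery in the data can therefore differ. No counts stand behind array values, and their number limits the precision.

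No 2 arrays were identical. Deviations of same-numbered arrays correlated at -0.24 to 0.60 (mean 0.064, 20 of 45 pairs over 0.1) and those of different numbers at -0.42 to 0.44 (mean -0.03, 25 of 90). All 3 same-numbered pairs were over 0.1 between 8 h and 0 h (0.20, 0.19 and 0.14) and between 8 h and 4 h (0.18, 0.35 and 0.60), and in no other comparison made. The labels name no shared batch and pairs of different numbers also passed 0.1, so this does not show that arrays were paired. The members, lists and tests were chosen with earlier results of these data known. Every member past the F test was named, with single arrays for those changed at least 2-fold, and up to 4 members of each list. Alternatives were quantile normalization, median centring, leaving out the dimmest genes, the mean of probe sets, array weights, a replicate block, an intensity trend, the 6 arrays compared alone, each array left out, and 1 combination of 3 arrays chosen after seeing the data. Tables were made with pandas 2.3.3 under Python 3.11.15, and plots with matplotlib 3.10.9.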

Additional observations from a re-analysis of the deposited data

How the results depend on the processing

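Of 161 alternative values of the 10 member counts, 146 were within 1.5 times the reported count, and 0 of 465 alternative values of 31 single-gene differences changed sign. In 56 of the 465 the call changed, and 19 of the 31 differences kept theirs under every alternative. Array weights gave the largest departures, with 19 members in the F test, 8 at 8 h, 5 at 12 h, 5 from 4 h to 8 h, 1 from 8 h to 12 h, 8 from 12 h to 24 h and 1 from 24 h to 48 h, and replicate 1 of 8 h then had a weight of 5.184 against 0.246 and 0.827 for replicates 2 and 3. At 4 h 1 member, TRIM38, was called with quantile normalization, with the dimmest genes left out (fewer genes tested) and with 3 arrays left out together, and the last gave 5 at 8 h and 6 at 12 h. Median centring called 1 member from 24 h to 48 h. Leaving out 1 array at a time gave 9 to 12 members in the F test, 2 to 3 at 8 h and at 12 h, 7 to 9 at 24 h and 7 to 11 at 48 h. From 12 h to 24 h it gave 2 to 6, with 2 without replicate 1 of 12 h or of 24 h. The replicate block gave 2 members at 8 h and 0 from 4 h to 8 h, and changed neither count. Same-numbered arrays were correlated in these comparisons, which does not show that they were paired. Elsewhere the block gave 10 members in the F test, 10 at 24 h and 12 at 48 h. Of the single-gene differences it changed 1 call, that of TRIM59 at 24 h (adjusted p = 0.0308). The cause of these shifts was not tested. The shares of all genes called under these alternatives are not given here.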

Other observations

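By chromosome, 10 of the 54 members lie on chromosome 11 and 4 of these passed the F test (TRIM5, TRIM21, TRIM22 and TRIM44), where 16.4% of all genes passed. These counts are small. Chromosome 6 holds 7 members and chromosome 1 holds 8, of which 1 (TRIM38) and 0 passed. For 7 members with several probe sets the values of each probe set were compared. The 3 probe sets of TRIM15 and the 2 of TRIM27 held the same group means, and TRIM31 differed from 0 h at 48 h by 0.67, 0.49 and 0.52 on its 3 probe sets. TRIM51 had the widest gap at 4 h, with 0.71 at 4 h on the brightest probe set and 0.16 on the other 2, and none of its comparisons passed.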
